A study of Mus musculus with 12 samples.

Results

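The Ifit genes encode interferon-induced proteins built from tetratricopeptide repeats, and the 3 genes listed under the symbols Ifit1, Ifit2 and Ifit3 were followed here in liver and gastrocnemius of mice with a mutated mitochondrial methionyl-tRNA synthetase. They were chosen by symbol, as 3 of the 24062 genes counted. A search of older names and synonyms found another 3 genes of the same family under clone-like symbols: I830012O16Rik, which RefSeq names Ifit3b, Gm14446, named Ifit1bl1, and 2010002M12Rik, named Ifit1bl2. These near copies are described beside the members. The 7 symbols that begin with Ifitm belong to a separate family of membrane proteins.

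Cells make Ifit proteins in response to type I interferon. The interferon receptor activates transcription factors that join IRF9 and bind a DNA element with repeated GAAA cores in the promoters of interferon-stimulated genes. IRF3 and IRF7, switched on by sensors of foreign nucleic acid, can bind elements of the same kind, so Ifit genes can also be induced without passing through the receptor. The proteins then act on RNA: Ifit1 holds RNA ends that lack the ribose methylation of a host messenger cap and keeps such RNA from the translation machinery, Ifit2 binds RNA and the initiation factor eIF3, and human IFIT3 is a partner that steadies IFIT1 on its RNA.

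Poly(A) RNA was sequenced from both tissues of female C57BL/6N mice on a chow diet, giving 12 libraries in 4 groups of 3. The titles give the same 6 numbers to the livers and the muscles, with matching ages, and these are read here as animal numbers, although the labels do not state it. The wild-type (WT) liver and WT gastrocnemius groups came from animals 6, 8 and 9, which were 7.4 to 9.0 weeks old. The R135W liver and R135W gastrocnemius groups came from animals 5, 7 and 12, also 7.4 to 9.0 weeks old, which carried the missense allele Mars2 R135W on both chromosomes in the whole body. The sources used here do not say how the allele was made or whether animals shared a litter, and they name no infection or interferon treatment in any group. Total counts ran from 20751583 to 30460237 per library, and libraries of separate animals differed by more than counting error, with chi-squared per degree of freedom from 8.07 to 118. Mars2 RNA itself was present in both genotypes, at 2.24 to 3.40 CPM (counts scaled to library size) in WT liver and 2.40 to 3.63 in R135W liver, and at 10.9 to 12.8 in WT muscle and 8.88 to 10.6 in R135W muscle. Neither difference passed the threshold (adjusted p = 0.90 and 0.295), and a missense allele need not change the RNA level, so this does not check the labels. Marker genes matched the labelled tissues: 8 hepatocyte markers summed to 91960 to 92970 CPM in WT liver, 73490 to 82490 CPM in R135W liver and 6.93 to 46.3 CPM in muscle, and 9 muscle fibre markers to 139300 to 185300 CPM in muscle and 1.37 to 2.38 CPM in liver.

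All 6 family genes lie in one cluster on chromosome 19, at chr19:34550694-34650009 of mm10, a span of 99316 bp. Ifit2 (chr19:34550694-34576534, plus strand, 3 exons) comes first, followed by Ifit3 (chr19:34583529-34588982, plus strand, 2 exons), Gm14446 (chr19:34592888-34601968, minus strand), I830012O16Rik (chr19:34607957-34613401, plus strand), 2010002M12Rik (chr19:34617051-34640743, minus strand) and Ifit1 (chr19:34640889-34650009, plus strand, 2 exons). No exon bases are shared between them, so the counting rule that assigns a fragment to every gene it overlaps does not add counts across the family. Ifit1 and 2010002M12Rik point away from each other with starts 146 bp apart and share the sequence between them. The bases before the starts are shown because these genes moved together between genotypes; they are printed from RefSeq (GRCm38.p6), whose promoter table held all 6 genes, on the strand of the gene. Capitals mark matches to GAAANNGAAA, an interferon-response-like motif searched on both strands, where NN is any pair of bases. The matches printed here lie on the strand opposite to the gene and so appear as the reverse complement.
Ifit1 (chr19:34640744-34640870): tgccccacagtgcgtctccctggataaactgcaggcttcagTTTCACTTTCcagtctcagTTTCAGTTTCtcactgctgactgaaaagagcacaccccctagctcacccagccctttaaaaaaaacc
Ifit2 (chr19:34550444-34550693): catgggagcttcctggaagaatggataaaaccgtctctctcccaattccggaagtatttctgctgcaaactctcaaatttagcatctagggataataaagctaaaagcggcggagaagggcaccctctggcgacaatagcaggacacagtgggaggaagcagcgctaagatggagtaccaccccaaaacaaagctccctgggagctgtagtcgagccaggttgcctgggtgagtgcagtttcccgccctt
Ifit3 (chr19:34583279-34583528): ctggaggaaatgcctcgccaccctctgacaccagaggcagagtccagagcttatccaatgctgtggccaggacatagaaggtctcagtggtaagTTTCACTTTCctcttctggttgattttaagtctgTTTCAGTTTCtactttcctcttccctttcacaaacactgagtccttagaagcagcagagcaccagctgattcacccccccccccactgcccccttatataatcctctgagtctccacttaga
I830012O16Rik (chr19:34607707-34607956): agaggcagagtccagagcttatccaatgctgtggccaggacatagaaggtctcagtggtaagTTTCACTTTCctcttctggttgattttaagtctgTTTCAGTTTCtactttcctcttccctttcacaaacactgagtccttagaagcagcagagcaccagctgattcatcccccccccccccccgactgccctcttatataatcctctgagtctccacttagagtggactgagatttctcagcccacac
For Ifit1 only the bases between the exons of the divergent pair are printed. Its 2 matches lie 104 to 95 and 85 to 76 bases before the start, do not overlap, and are the same bases that lie 70 to 61 and 51 to 42 bases before the start of 2010002M12Rik on the other strand. Ifit3 carried 2 matches, at 156 to 147 and 122 to 113 bases before its start, and I830012O16Rik carried the same 2 runs of letters at 188 to 179 and 154 to 145. Gm14446 had 1 match, 104 to 95 bases before its start. Among 32851 RefSeq windows of 300 bases, taken from 250 before to 50 after a start, 1131 (3.44%) held at least 1 match and 74 (0.225%) held 2 or more. The Ifit2 window held none, which says only that these letters are not in that stretch.

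Members rose together in R135W liver. In the liver comparison 3.28% of 13935 tested genes passed an adjusted p of 0.05 in edgeR's quasi-likelihood test with Benjamini-Hochberg adjustment, and 2.76% passed as higher; all 3 members did. Their fold changes ran from 3.49 to 5.00, against a median log2 change of -0.01 over all tested genes. In gastrocnemius 0.875% of 13826 tested genes passed, 0.542% as higher, and 2 of the 3 members were among them. Ifit1 was not called there (edgeR adjusted p = 0.0798). In fits without 1 library, 1 to 3 members passed in liver and 0 to 2 in gastrocnemius. In both tissues every R135W library lay above every WT library for all 3 members, a pattern that 14.1% of tested genes showed in liver and 9.1% in gastrocnemius. Since these are whole tissues, a change in the number of cells that make an RNA and a change in its amount per cell cannot be told apart.

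**Figure D1:**
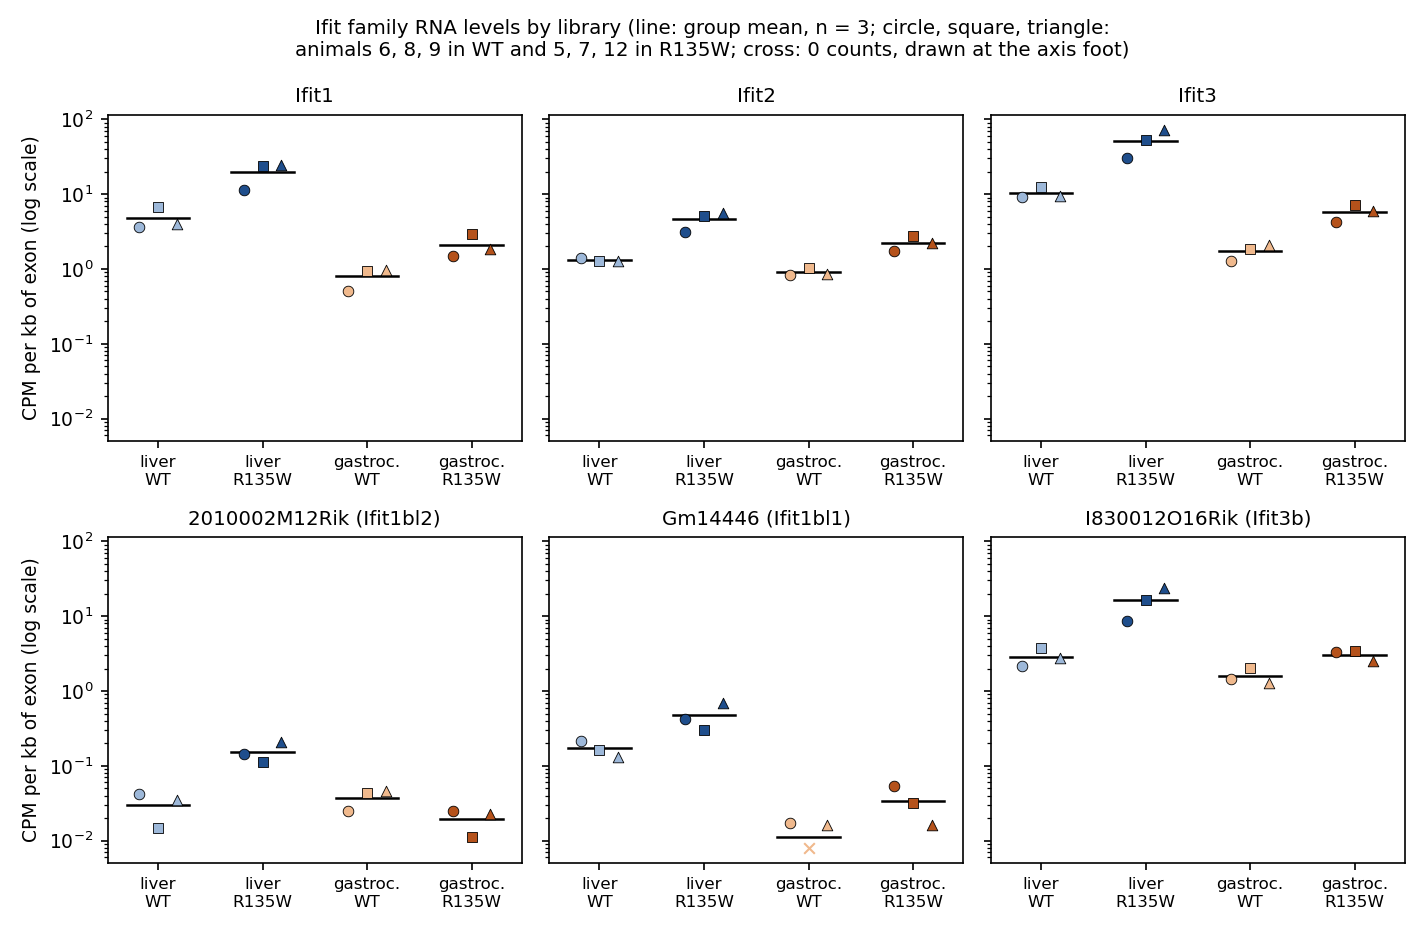
RNA levels of the 6 Ifit family genes in each of the 12 libraries, as CPM per kilobase of exon on a logarithmic axis, by tissue and genotype, with lines at the group means. For Ifit1, Ifit2, Ifit3 and I830012O16Rik the 3 R135W points lie above the 3 WT points in each tissue, while Gm14446 and 2010002M12Rik stay under 1 CPM per kb everywhere.

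Ifit1, the sensor of incompletely capped RNA, stood at 9.55, 17.5 and 10.4 CPM in the WT livers of animals 6, 8 and 9 and at 29.5, 63.2 and 64.4 CPM in the R135W livers of animals 5, 7 and 12. The lowest mutant liver exceeded the highest WT liver, and animal 5 was well under the other two mutants. The log2 fold change was 2.07 ± 0.33 (SE), a 4.19-fold rise (edgeR adjusted p = 0.017). That call was lost without the R135W liver of animal 7 (log2 1.90, adjusted p = 0.0542) and without the WT liver of animal 9 (1.95, adjusted p = 0.0821). In gastrocnemius Ifit1 was scarce, at 1.33, 2.45 and 2.57 CPM in WT and 3.89, 7.72 and 4.82 CPM in R135W. The groups did not overlap, and the log2 difference was 1.35 ± 0.29 (SE, 2.55-fold), but the adjusted p was 0.0798. Ifit1 passed in muscle under DESeq2 (adjusted p = 0.000286), without a filter on low counts (0.0289) and with age as a covariate (0.0356). It was called in only these 3 of the 15 settings tried, and in 0 of the 6 fits without 1 library. The adjusted p reached 0.388 across the settings and 0.24 in those 6 fits.

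Ifit2, a member that binds eIF3, was the most even of the 3 across WT livers, at 5.45, 5.09 and 5.10 CPM. Mutant livers held 12.4, 20.3 and 22.2 CPM, each more than any WT liver. The log2 fold change of 1.80 ± 0.22 (SE, 3.49-fold) was the smallest of the members in liver (edgeR adjusted p = 0.00812), and Ifit2 was the only member that passed there under all 15 settings tried. In gastrocnemius it stood at 3.28, 4.04 and 3.37 CPM in WT and 6.93, 10.7 and 8.84 CPM in R135W. Again no mutant library fell into the WT range, and the log2 fold change was 1.30 ± 0.17 (SE, 2.45-fold, edgeR adjusted p = 0.0184). The muscle call was lost when the R135W library of animal 7 (log2 1.13, adjusted p = 0.0511) or the WT library of animal 6 (1.24, 0.0529), 8 (1.40, 0.0662) or 9 (1.26, 0.0698) was left out.

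Ifit3, the most abundant member per kilobase of exon, had the largest fold change of the members in both tissues. In muscle that rank depends on how reads were split with I830012O16Rik. Counted together, the 2 genes gave a log2 change of 1.39 there, beside 1.35 for Ifit1 and 1.30 for Ifit2. The liver levels of Ifit3 were 18.1, 24.5 and 19.02 CPM in WT and 59.95, 104 and 145 CPM in R135W. The mutant livers ranged over 2.42-fold among themselves, yet the lowest stood well clear of the WT group. The log2 fold change was 2.32 ± 0.29 (SE), a 5.00-fold rise (edgeR adjusted p = 0.00831), and it missed the threshold only without the WT liver of animal 9 (2.27, adjusted p = 0.0507). Gastrocnemius held 2.57, 3.68 and 4.22 CPM in WT and 8.45, 14.2 and 12.0 CPM in R135W. Here too the groups stood apart, with a log2 fold change of 1.71 ± 0.22 (SE, 3.27-fold, edgeR adjusted p = 0.0184). Leaving out the R135W muscle of animal 7 (log2 1.53, adjusted p = 0.0548) or the WT muscle of animal 8 (1.75, 0.0709) ended that call, as did the fit of all 12 libraries (1.72, 0.0714), which also tests another set of genes and rescales the libraries.

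**Figure D2:**
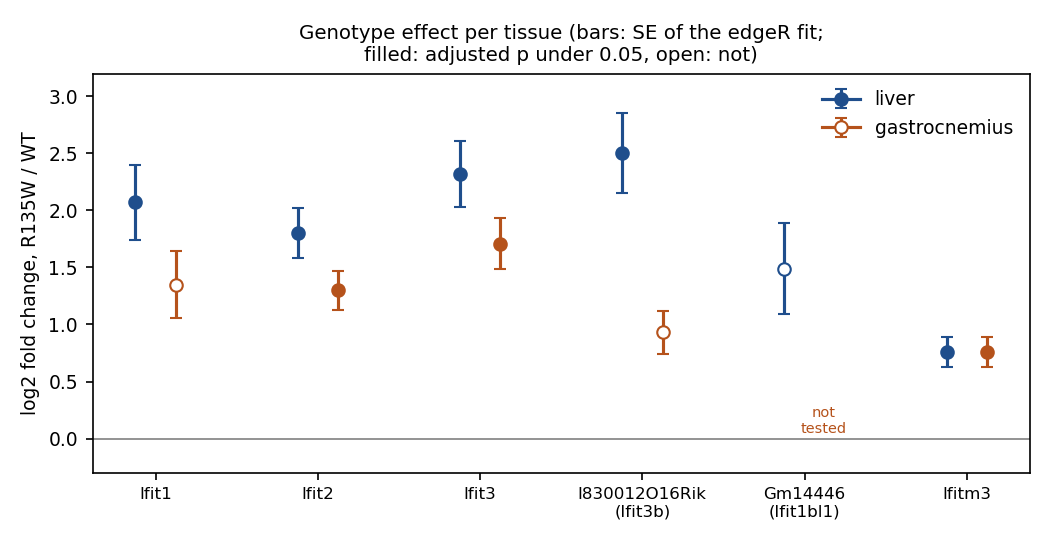
Log2 fold change of R135W over WT for the members, the near copies I830012O16Rik and Gm14446, and Ifitm3, in liver and gastrocnemius. Bars show the standard error of the edgeR fit. Filled points passed an adjusted p of 0.05; the 3 members pass in liver at 1.80 to 2.32, and Ifit2 and Ifit3 pass in muscle at 1.30 and 1.71.

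I830012O16Rik, the near copy of Ifit3, rose with the members in liver. It stood at 4.29, 7.49 and 5.58 CPM in WT liver and 17.6, 33.2 and 47.6 CPM in R135W liver, a log2 fold change of 2.50 ± 0.35 (SE, 5.65-fold, edgeR adjusted p = 0.0112). Without the WT liver of animal 9 it was 2.47 (adjusted p = 0.0612). In muscle it held 2.95, 4.08 and 2.61 CPM in WT and 6.63, 6.81 and 5.13 CPM in R135W, and the log2 difference of 0.93 ± 0.19 (SE) did not pass (edgeR adjusted p = 0.0601), though it did under DESeq2 (adjusted p = 0.00201) and without a filter on low counts (0.023). All mutant libraries exceeded all WT libraries in either tissue. How reads were divided between this gene and Ifit3 is uncertain: of the 1646 stretches of 100 bases in Ifit3 transcripts, 521 (31.7%) occur unchanged in transcripts of I830012O16Rik, and a fragment was counted only at its primary alignment. With both genes counted as 1, the log2 fold change was 2.36 ± 0.30 in liver (SE, adjusted p = 0.00901) and 1.39 ± 0.15 in muscle (SE, adjusted p = 0.00929). Ifit2 shared no such stretch with any family gene, and Ifit1 shared 84 of 2557 (3.29%) with 2010002M12Rik.

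The other 2 near copies were counted in few fragments. Gm14446 had 8 to 11 counts in WT livers and 15 to 55 in R135W livers, and its log2 difference of 1.49 ± 0.40 (SE) did not pass (edgeR adjusted p = 0.0971), except in the fit of all 12 libraries (adjusted p = 0.0369). In muscle it had 0 to 3 counts and was not tested. 2010002M12Rik had 1 to 3 counts in WT livers, 8 to 23 in R135W livers and 1 to 4 in muscle, and was tested in neither tissue. Its partner across the shared promoter, Ifit1, had 205 to 357 counts in WT livers and 792 to 2129 in mutant livers.

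Compared per kilobase of exon, which allows levels of different genes to be set side by side, the family was ordered alike in WT and R135W liver. Ifit3 stood highest, at a mean of 10.3 CPM per kb in WT and 51.6 in R135W. Ifit1 followed at 4.73 and 19.9, and its libraries overlapped those of I830012O16Rik, at 2.87 and 16.3. Ifit2 came next at 1.32 and 4.64, apart from its neighbours in both groups, and Gm14446 and 2010002M12Rik were last. Muscle showed another order. Ifit3 led with 1.75 in WT, where its libraries overlapped those of I830012O16Rik at 1.60, and with 5.79 in R135W, where the next, again I830012O16Rik at 3.08, stood apart. Ifit2 and Ifit1 could not be ranked in muscle, at 0.903 and 0.803 in WT and 2.24 and 2.08 in R135W. Of the family's summed counts per kb, Ifit2 made up 4.41% to 8.40% in liver libraries and 16.1% to 20.1% in muscle libraries, while Ifit3 made up 50.9% to 57.1% and 31.2% to 47.5%.

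All 3 members were more abundant in liver than in muscle, in a comparison where 82.1% of 15414 tested genes differed between the WT tissues and 40.9% were higher in liver. In WT the log2 difference was 2.54 ± 0.39 (SE) for Ifit1, 2.55 ± 0.32 for Ifit3 and 0.55 ± 0.23 for Ifit2, or 5.83-fold, 5.85-fold and 1.46-fold. The Ifit2 difference had an edgeR adjusted p of 0.0389 and missed the threshold in limma-voom (0.114) and without WT animal 6 (0.179), 8 (0.0609) or 9 (0.135). With the animal as a block it was 0.55 ± 0.16 (SE, edgeR adjusted p = 0.00794). In R135W, where 82.1% of genes differed and 41% were higher in liver, the differences were 3.25 ± 0.36 for Ifit1, 3.15 ± 0.29 for Ifit3 and 1.05 ± 0.20 for Ifit2 (SE). Ifit1 and Ifit3 were thus 9.52-fold and 8.90-fold higher in liver. The Ifit3 values depend on how reads were split with I830012O16Rik. With both genes counted as 1 the log2 difference was 1.97 ± 0.29 in WT and 2.94 ± 0.28 in R135W (SE).

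The ratio between members within a library does not depend on library scaling, and both ratios that involve Ifit2 fell into separate ranges by tissue. Per kb, Ifit1 was 2.62 to 5.12 times Ifit2 in the 6 livers and 0.612 to 1.14 times Ifit2 in the 6 muscles. Ifit2 was 0.0773 to 0.153 of Ifit3 in liver and 0.372 to 0.644 in muscle. For Ifit1 over Ifit3 the tissues overlapped, at 0.336 to 0.541 in liver and 0.305 to 0.506 in muscle. Both ratios to Ifit3 also depend on how its reads were split with I830012O16Rik, and no ratio to the combined count was taken. Between genotypes 6 ratios were compared (3 pairs in 2 tissues), and 0 passed in the two-sided exact permutation test, which with 3 against 3 cannot go under 0.1. The largest shift was in Ifit2 relative to Ifit3 in liver, from a log2 ratio of -2.94 ± 0.27 in WT to -3.43 ± 0.23 in R135W (SD, n = 3, exact permutation p = 0.1, Benjamini-Hochberg adjusted p = 0.4). That p is the smallest possible, since every R135W liver lay below every WT liver. The nearest were R135W animal 5 at -3.252 and WT animal 8 at -3.243. In gastrocnemius the same ratio moved from -0.93 ± 0.34 to -1.36 ± 0.08 (SD, n = 3, exact permutation p = 0.2, adjusted p = 0.4).

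**Figure D3:**
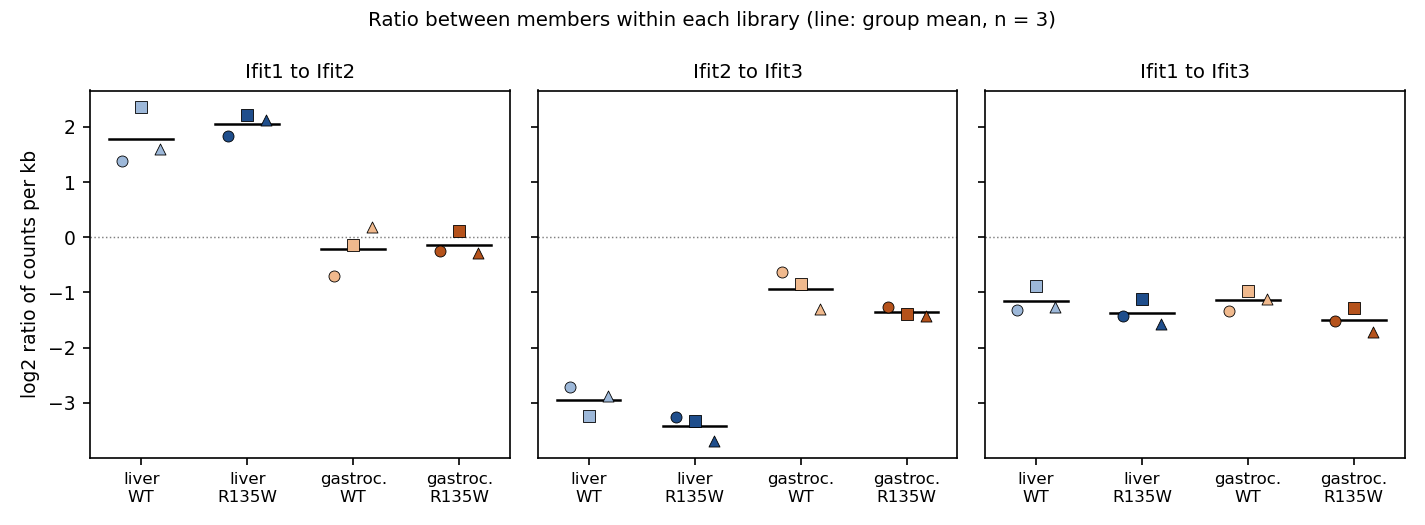
Log2 ratio of counts per kilobase between pairs of members within each of the 12 libraries, with lines at the group means of 3. The ratios that involve Ifit2 fall into separate ranges for liver and gastrocnemius, and for these the genotype shifts within a tissue are smaller than the tissue difference. For Ifit2 to Ifit3 in liver every R135W library lies below every WT library, by a narrow margin.

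Whether the genotype effect differed between tissues was tested as an interaction over all 12 libraries, where 0.13% of 15414 genes passed. None of the 3 members did, by edgeR, DESeq2 or limma-voom, and none had an unadjusted edgeR p under 0.05. The liver effect minus the muscle effect, in log2, was 0.71 for Ifit1 (95% interval -0.41 to 1.83, adjusted p = 0.705), 0.50 for Ifit2 (-0.15 to 1.16, adjusted p = 0.62) and 0.61 for Ifit3 (-0.30 to 1.51, adjusted p = 0.686). The intervals are wide and admit a larger liver effect of over 2-fold as well as no difference. They come from the fit that does not pair the tissues of an animal. The Ifit3 value depends on how reads were split with I830012O16Rik. With both genes counted as 1 it was 0.97 ± 0.38 (SE, edgeR adjusted p = 0.415), and no interval was computed for that count. With the animal as a block the differences were 0.69 ± 0.29 for Ifit1, 0.48 ± 0.21 for Ifit2 and 0.54 ± 0.25 for Ifit3 (SE). Those SEs were smaller than the 0.52, 0.30 and 0.42 without it, and no member passed (edgeR adjusted p = 0.488, 0.53 and 0.546). For I830012O16Rik the difference was 1.57 (0.57 to 2.56, unadjusted p = 0.00468, adjusted p = 0.247), and it passed only under DESeq2 (1.54, adjusted p = 0.0492).

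Animals kept much the same order across members. Among the R135W livers animal 12 was highest, animal 7 next and animal 5 lowest for each of Ifit1, Ifit2, Ifit3 and I830012O16Rik. In the R135W muscles animal 7 led, followed by animal 12 and animal 5, for all 3 members. Animal 5 was thus the lowest mutant in both tissues for every member. I830012O16Rik differed in muscle, where the order was animals 7, 5 and 12 in R135W and animals 8, 6 and 9 in WT. WT animals showed no common order in liver, while in muscle animal 6 was lowest for all 3 members. In WT liver animal 8 was highest for Ifit1 and Ifit3 and lowest for Ifit2, with a range of 1.07-fold for Ifit2 and 1.83-fold for Ifit1.

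Across the 12 libraries, after the mean of each tissue was removed from log2(CPM + 0.5), the members correlated with each other at r = 0.955 (Ifit1 with Ifit2), 0.978 (Ifit1 with Ifit3) and 0.984 (Ifit2 with Ifit3). These are descriptions, since the libraries share the genotype difference. The 10 genes most like the mean of the members, out of 12410, were Isg15, which encodes the ubiquitin-like interferon-induced modifier (r = 0.987), the guanylate binding protein gene Gbp3 (0.986), Ifi44 (0.986), the helicase gene Ddx60 (0.970), Trim30a (0.969), Ddx58, which encodes the RNA sensor RIG-I (0.969), Oasl2 (0.967), Xaf1 (0.967), the Z-nucleic-acid sensor gene Zbp1 (0.965), and Parp14 (0.963). Isg15 in liver had a log2 fold change of 2.34 ± 0.27 (SE) and Ifi44 one of 3.07 ± 0.36, both above the members' range of 1.80 to 2.32, and Ddx58 one of 0.85 ± 0.16, below it. In the 6 livers alone Ifi44, Trim30a and Oasl2 came first (each r = 0.998), followed by Isg15 (0.997) and Ube2l6, which encodes the enzyme that carries Isg15 to its targets (0.996). In the 6 muscles alone the most alike genes were less uniform: Parp10 (0.993) stood beside Epb4.1l1 (0.996), Ptbp3 (0.995) and Unc5b (0.991), a netrin receptor gene. Of these, Epb4.1l1 and Ptbp3 differed by only 0.25 ± 0.10 and 0.20 ± 0.08 (SE, log2) in muscle, neither past the threshold (edgeR adjusted p = 0.384 and 0.376). With 6 libraries and 13823 candidate genes, high correlations of this kind are easily found.

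**Figure D4:**
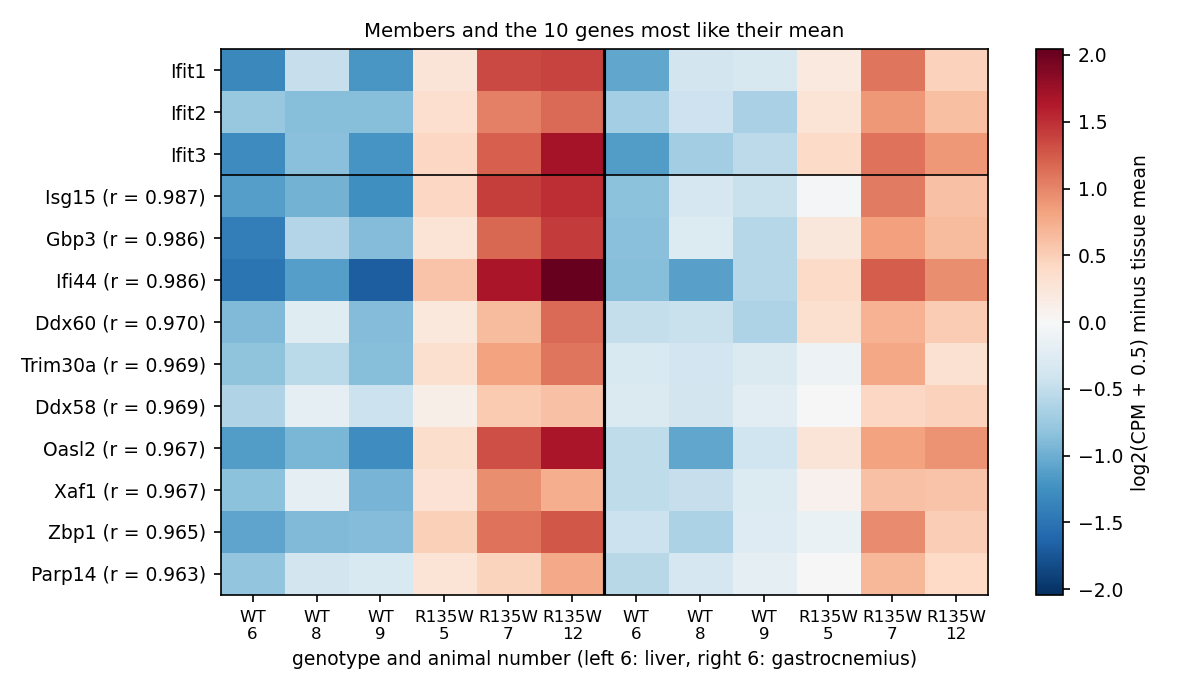
Log2(CPM + 0.5) minus the tissue mean in each library for the 3 members and the 10 genes most like their mean, as a heat map with libraries in columns. Red marks values above the tissue mean, and the R135W columns are mostly red and the WT columns blue in both tissues, with animal 5 palest among the mutants.

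The genes that encode the inducing ligands were at or near 0 counts. Of 20 type I and type III interferon genes, 16 had 0 counts in all 12 libraries, none reached the tests, and the largest count in any library was 8. Ifnb1 had at most 1 count in a liver library and 0 in muscle. A count of 0 allows a level of up to 0.0985 CPM in the deepest library and 0.145 CPM in the shallowest, by counting error alone.

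Among 11 genes of receptor signalling, 2 were called higher in liver and 0 lower: Usp18, a brake on the receptor that is itself interferon-induced (log2 1.99 ± 0.28, SE), and Irf9 (0.55 ± 0.11). The list's median was 0.31, beside -0.01 over all tested genes. The receptor chains themselves did not pass, with 0.07 ± 0.11 for Ifnar1 and -0.13 ± 0.12 for Ifnar2. In gastrocnemius 1 of 10 tested genes was called, Stat2 at 0.70 ± 0.13, and the median was 0.17. Without the WT liver of animal 8 the liver count was 0, it was 1 without any other liver library, and the muscle count was 0 when any of 5 of the 6 muscle libraries was left out, all but that of R135W animal 5. The call of Irf9 was also lost with age as a covariate (adjusted p = 0.0806) and that of Stat2 in the fit of all 12 libraries (0.103).

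Sensors and factors upstream of interferon gave 6 of 17 called higher in liver, 0 lower, with a median of 0.63. Irf7, which encodes a factor that can bind Ifit promoters directly, rose by a log2 fold change of 2.51 ± 0.19 (SE) there. It was followed by the endosomal receptor genes Tlr9 (2.26 ± 0.35) and Tlr7 (1.52 ± 0.30), the RIG-I-like gene Dhx58 (1.53 ± 0.16), Ddx58 and Irf5 (0.84 ± 0.18). In gastrocnemius 2 of 16 were called, with a median of 0.10: Irf7 at 2.56 ± 0.26 and Ifih1, the MDA5 sensor, at 0.72 ± 0.13. The liver count was 2 without the R135W liver of animal 7 or the WT liver of animal 8, and 3 without the R135W liver of animal 12 or the WT liver of animal 6 or 9. In muscle 0 passed without the WT library of animal 8, and 1 without R135W animal 7 or 12 or WT animal 6 or 9. With age as a covariate Ddx58 (adjusted p = 0.0581) and Irf5 (0.0674) were no longer called in liver, and Ifih1 in muscle was not called by limma-voom (0.0504) or in the fit of all 12 libraries (0.503). Whether the genes of this list rose ahead of the members or along with them was not tested.

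Other interferon-induced proteins that act on RNA were encoded by genes that mostly passed in liver. There 22 of 30 were called higher and 0 lower, with a median of 1.34, among them the oligoadenylate synthetase genes Oas1a (log2 3.23 ± 0.26, SE), Oas1g (3.27 ± 0.30), Oasl1 (2.28 ± 0.19) and Oas3 (2.15 ± 0.24), the tether gene Bst2 (1.26 ± 0.13) and Slfn2 (1.36 ± 0.14). The count was 8 without the WT liver of animal 9. In gastrocnemius 10 of 27 were called higher, with a median of 0.95, led by Oas2 (1.59 ± 0.20), Ifi44 (2.09 ± 0.27), Ddx60 (1.34 ± 0.19), Rtp4 (1.26 ± 0.20), Oasl2 (1.48 ± 0.23) and Bst2 (1.32 ± 0.22). That count was 0 to 2 when any muscle library except that of R135W animal 5 was left out (2 without R135W animal 12, 1 without WT animal 9, 0 without R135W animal 7 or WT animal 6 or 8), and 2 in the fit of all 12 libraries, and Bst2 in muscle was not called by limma-voom (adjusted p = 0.0572). These genes and the members are known targets of the same pathway, and their counts are descriptions.

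The host genes whose products share RNA with Ifit proteins were counted in the same way. Of 22 genes for cap binding, cap methylation and eIF3, 0 were called higher in either tissue by edgeR, DESeq2 or limma-voom fitted within the tissue, and 0 were called lower by edgeR. At an unadjusted edgeR p under 0.05 there were 2 in liver and 3 in muscle. Such p-values were common among all genes. In liver Kif20b, at an unadjusted edgeR p of 0.0378, ranked only 2104 by p among 13935 tested genes. In muscle Epb4.1l1, at 0.0361, ranked 1302 among 13826. Counts at the unadjusted cut, here and in the marker and locus lists below, are therefore descriptions. Cmtr1, which encodes the cap methyltransferase whose product Ifit1 holds poorly and which is itself known as interferon-induced, differed by 0.34 ± 0.13 in liver (SE, log2, edgeR adjusted p = 0.212) and -0.08 ± 0.06 in muscle (adjusted p = 0.652). The median of the list was -0.10 in liver and -0.05 in muscle, and Eif3e, for a subunit of the eIF3 complex, stood at -0.19 ± 0.10 and -0.06 ± 0.07. Among the alternatives the single call of a rise was Cmtr1 in liver in the fit of all 12 libraries (0.35, adjusted p = 0.0467).

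Cell type markers differed with genotype in liver. The 13 macrophage markers summed to 367 to 586 CPM in WT livers and 987 to 1049 CPM in R135W livers, 11 of them were called higher by edgeR, and none was at 0. Without the R135W liver of animal 7 the count was 4, and without that of R135W animal 5 or WT animal 8 or 9 it was 7. Monocyte markers summed to 11.1 to 12.6 and 23.4 to 28.2 CPM, with 4 of 6 called (Ly6c2, Plac8, Itgax and S100a4). NK cell markers summed to 3.53 to 4.38 CPM in WT livers and 6.40 to 8.99 CPM in R135W livers. Of 4 tested, 2 were called (Klrk1 and Gzmb) and 3 had an unadjusted edgeR p under 0.05. B cell markers summed to 8.28 to 12.2 and 16.5 to 21.3 CPM, with 1 of 6 called (Cd22) and 5 at that unadjusted cut. T cell markers summed to 4.65 to 5.54 and 7.23 to 7.96 CPM. For T cells 0 of 6 were called higher by edgeR, DESeq2 or limma-voom, with 3 at an unadjusted edgeR p under 0.05. Neutrophil markers summed to 5.08 to 8.07 CPM in WT livers and 11.3 to 19.4 CPM in R135W livers, where edgeR called 0 of the 5 tested and 4 had an unadjusted p under 0.05. Dendritic cell markers summed to 12.2 to 13.6 and 14.6 to 17.9 CPM, with 0 of 7 called and 3 at an unadjusted p under 0.05. The hepatocyte sums given above were lower in every R135W liver than in any WT liver, with 0 of 8 markers called by edgeR, 1 at an unadjusted p under 0.05 and a median log2 difference of -0.22. The part of these cells in the liver levels of Ifit1, Ifit2 and Ifit3 was not tested. In gastrocnemius 0 of 8 tested macrophage markers were called higher by edgeR, DESeq2 or limma-voom, 0 had an unadjusted p under 0.05, and their sums overlapped between WT (45.0 to 56.0 CPM) and R135W (47.9 to 60.8 CPM), with Vsig4 at 0 in the R135W muscles. Endothelial markers summed to 229 to 253 CPM in WT muscle and 289 to 318 CPM in R135W muscle, with 1 of 7 called (Kdr). Of these 7, 5 had an unadjusted edgeR p under 0.05 and 5 had a log2 difference above 0, with a median of 0.29. The part of endothelial cells in the muscle values was not tested. Hepatocyte markers reached 46.3 CPM in the R135W muscle of animal 12, or 0.0545% of the mean liver sum, against 6.93 to 20.0 CPM in the other 5 muscles. At that share of R135W liver RNA, Ifit3 would stand at 0.0561 CPM and Ifit1 at 0.0285 CPM in that library, whose measured levels were 12.0 and 4.82 CPM. The marker sum is a rough measure of such a share. Of 3 hepatocyte markers tested in muscle, 2 were higher in R135W and Pck1 was called lower by edgeR, with a median log2 difference of 2.6. A part of liver RNA in the muscle values was not tested.

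Of the 12 other genes within 500 kb of the cluster, 7 were tested in liver and 6 in gastrocnemius, and 0 were called higher in either tissue by edgeR, DESeq2 or limma-voom. At an unadjusted edgeR p under 0.05, 1 was higher in each tissue: Kif20b, a kinesin gene, in liver (log2 0.97 ± 0.40, SE) and Acta2, the smooth muscle actin gene, in gastrocnemius (0.32 ± 0.11). In liver Pank1, a pantothenate kinase gene that begins the synthesis of coenzyme A, was called lower (log2 -0.77 ± 0.16, SE, edgeR adjusted p = 0.0348), in a comparison where 0.524% of tested genes were called lower. The Pank1 call was lost without the R135W liver of animal 5 (adjusted p = 0.0959), 7 (0.0721) or 12 (0.0817) or the WT liver of animal 8 (0.116) or 9 (0.13), and with age as a covariate (0.0534). The genes that flank the cluster differed by 0.16 ± 0.12 for Lipa, which encodes lysosomal acid lipase, and by -0.56 ± 0.14 for the transporter gene Slc16a12, neither past the threshold (edgeR adjusted p = 0.533 and 0.0808), though Slc16a12 passed under DESeq2 (0.018) and in the fit of all 12 libraries (0.0335). In gastrocnemius no tested neighbour passed in either direction.

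**Figure D5:**
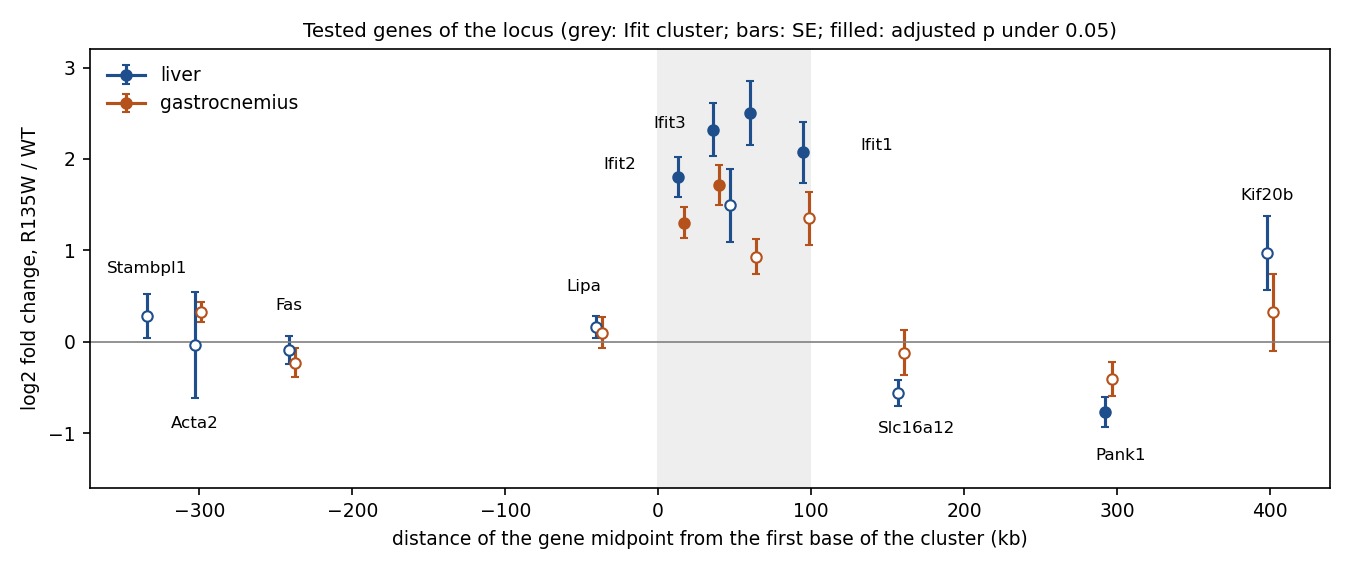
Log2 fold change of R135W over WT, with standard errors, for the tested genes within 500 kb of the Ifit cluster, against the distance of each gene's midpoint from the first base of the cluster in kilobases, with gastrocnemius points drawn 4 kb to the right for clarity. Within the grey cluster all values are above 0.9, and outside it only Pank1 in liver, at -0.77, passed.

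The similarly named Ifitm genes, which encode membrane proteins that block virus entry, were counted under 7 symbols, of which 5 were tested in liver and 4 in gastrocnemius. In each tissue Ifitm3 alone was called by edgeR, and no test set this family against the Ifit genes. Ifitm3 rose by the same log2 fold change of 0.76 ± 0.13 (SE) in both tissues (edgeR adjusted p = 0.0234 in liver and 0.0369 in muscle), from a mean of 322 to 547 CPM in liver and from 18.7 to 32.01 CPM in muscle. Of the fits without 1 library, its liver call held only without that of R135W animal 12 and its muscle call only without that of R135W animal 5, with adjusted p up to 0.0887 and 0.163 in the others. The muscle call was also lost in the fit of all 12 libraries (0.78, adjusted p = 0.0671). Ifitm6 had the largest log2 difference of the family in liver, at 1.41 ± 0.41 (SE, 2.66-fold), with every R135W library above every WT library, but it did not pass (edgeR adjusted p = 0.119). Liver values for the rest were 0.06 ± 0.11 for Ifitm2, 0.19 ± 0.17 for Ifitm1 and -0.09 ± 0.44 for Ifitm5 (SE, adjusted p from 0.625 to 0.938). In gastrocnemius Ifitm2 differed by 0.27 ± 0.08, Ifitm1 by 0.49 ± 0.46 and Ifitm10 by -0.42 ± 0.26 (SE, adjusted p from 0.238 to 0.747).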

How the data were processed

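The authors deposited raw counts: per the file headers, featureCounts 1.5.2 counted read pairs per gene symbol over exons (UCSC mm10 genes), primary alignments only, without a strand option, and a fragment overlapping several genes was counted for each. Per the submitters' processing notes the aligner was STAR 2.4.0. The counts are not normalised.

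Genotype was tested within each tissue in edgeR 4.0.16 (R 4.3.3) with TMM factors, filterByExpr and the quasi-likelihood F test; tissue contrasts and the interaction used all 12 libraries in 4 groups. P-values were Benjamini-Hochberg adjusted over all tested genes, with a threshold of 0.05. Each SE was derived from F, as the log2 change over its root. CPM were scaled by TMM over all 12 libraries. Ratios added 0.5 to each count. The tests were checked on simulated data.

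Titles give livers and muscles the same numbers, and ages agree, so the numbers were read as animals, which the labels do not state. Deviations from group means correlated at only -0.00189 to 0.0819 within numbers and -0.0732 to 0.0653 between them.

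Members and gene lists were chosen with earlier results of these data known. Named were all family genes, Mars2, genes within 500 kb, up to 6 called and 2 uncalled members of each list by smallest p or role, and the genes most like the members; 1 gene is not reported here and was left out of the lists. Ifitm3, Ifitm2 and the list members that also lead the likeness ranking were named under both. Alternatives were RLE factors, DESeq2 1.42.0, limma-voom (limma 3.58.1), no filter, a filter of 50 counts in 3 libraries, age, a fit of all libraries, the animal as a block, and omission of single libraries or animals; counting Ifit3 with I830012O16Rik and leaving out 1 muscle library for the interaction were chosen after seeing the data.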

Additional observations from a re-analysis of the deposited data

How the results depend on the processing

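The 3 members were higher in R135W in both tissues under all 15 settings each, at log2 1.65 to 2.60 in liver and 1.02 to 1.89 in gastrocnemius; the number of genes that passed depended far more on the setting. In liver 457 genes passed, against 781 with DESeq2, 274 with age as a covariate, 1057 in the fit of all 12 libraries and 84 to 285 without 1 library. In gastrocnemius it was 121, against 274 with DESeq2, 20 in the fit of all libraries and 3 to 106 without 1 library. Of the members, 1 to 3 passed in liver and 0 to 2 in gastrocnemius without 1 library, and 1 in gastrocnemius in the fit of all libraries, where Ifit3 was at 1.72. Ifit1 in gastrocnemius gained the call with DESeq2 (1.35), without a filter (1.35) and with age (1.26). Leaving out 1 library gave 1.90 to 2.38 for Ifit1 and 2.0 to 2.60 for Ifit3 in liver, and 1.13 to 1.44 for Ifit2 and 1.53 to 1.89 for Ifit3 in gastrocnemius. For the interaction 20 genes passed, against 171 with DESeq2, 7 with limma-voom, 7 without the muscle library of R135W animal 12 and 1 to 7 without 1 animal. The WT tissue difference of Ifit2 lost its call with limma-voom (0.55) and without any WT animal (0.45 to 0.66 over all animals left out). With the animal as a replicate block the interaction was 0.69 ± 0.29 for Ifit1, 0.48 ± 0.21 for Ifit2 and 0.54 ± 0.25 for Ifit3 (SE). There 16 genes passed, and no member's call changed. Mars2 in liver, at 0.08, ran from -0.12 to 0.28, and Ifnar1, at 0.07, from 0 to 0.10, without 1 library. The causes of these changes were not tested. With 3 animals a group, differences within the intervals given cannot be resolved, and low counts, 0 to 55 for Gm14446 and 1 to 23 for 2010002M12Rik, limit these near copies.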
